A study of Mus musculus with 6 samples.

Results

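The microRNAs miR-150, miR-26a and miR-26b were followed across 6 samples of mouse CD8+ T cells primed in culture for 3 days. They were taken by name, as the assays mmu-miR-150, mmu-miR-26a and mmu-miR-26b without the star that marks the other strand, and all 3 were on the panel, which has 345 miRNA assays with normalized values. The T cells were pMel-1 transgenic cells, whose T cell receptor recognises the melanoma antigen gp100. In 3 samples they were activated by bone marrow-derived dendritic cells matured with lipopolysaccharide (DC-primed), and in the other 3 by spleen B cells carrying the hgp100 peptide (B cell-primed), with 1 sample of each group in each of 3 rounds. The transgenic receptor, the culture medium and the days of priming were shared by both groups. The labels do not say whether a peptide was added to the dendritic cells or whether the priming cells were removed before RNA was taken, and the age of the mice is not given in the sources used here. Nor do they state that each round used its own mice: the spread behind every p-value below is that between these samples and may be technical.

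miR-150 is abundant in mature lymphocytes, T and B cells alike, and is known to be lost when T cells are activated; the transcription factor Myb is its best known target. miR-26a and miR-26b make up a small family with a shared seed, the stretch at the 5′ end that pairs with target mRNAs, and the family is known to repress Ezh2 and to lie in introns of the Ctdsp phosphatase genes. All 3 are counted among the miRNAs of resting T cells that decline once the cells are activated. Every sample here was taken after priming, so no resting cells stand beside them.

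The sequences are shown because miR-26a and miR-26b share their seed and nearly all other bases, while the other strands of the hairpins, also measured, carry other seeds. They are from RefSeq on the mouse build GRCm38.p6, written 5′ to 3′ with the seed, bases 2 to 8, in capitals. Of 7 assays for these hairpins, both strands counted, 6 had a mature sequence matched by name.
mmu-miR-26a-5p: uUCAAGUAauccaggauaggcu
mmu-miR-26b-5p: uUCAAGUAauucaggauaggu
mmu-miR-150-3p: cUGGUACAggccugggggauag
mmu-miR-26b-3p: cCUGUUCUccauuacuuggcuc

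miR-26a-5p is made from a pair of hairpins, at chr9:119031811-119031832 within the bounds of Ctdspl and at chr10:126995543-126995564 within Ctdsp2, both on the plus strand, and 1 assay reads the product of both. miR-26b-5p lies at chr1:74394324-74394344, plus strand, within Ctdsp1. Of the 21 bases they can be compared over, 19 are identical, and the substitutions from miR-26a to miR-26b, counted from the 5′ end, are C11U and C21U. Both fall outside the shared seed, which no other mature miRNA in the RefSeq table carries. The star assays of miR-150 and miR-26b are taken to read the 3p strands above. The seed of miR-26b-3p is also that of miR-26a-2-3p, and 4 mature miRNAs in the table carry it. miR-150-3p lies at chr7:45121798-45121819, plus strand, with no other annotated gene around it, and miR-26b-3p at chr1:74394360-74394381, plus strand.

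Levels are minus dCt, a log2 scale on which the authors set each threshold cycle (Ct) against 1 number for its sample, so that 1 unit stands for 2-fold and larger values for more of the miRNA. An assay was tested if its Ct was below 35 in all 6 samples, which 274 of the 345 met, the 3 members among them. DC-primed culture 3 had the latest cycles: the mean Ct over the tested assays was 26.26, 28.43 and 30.50 after DC priming in rounds 1, 2 and 3, against 26.39, 27.18 and 27.65 after B cell priming. Each assay has 1 value per sample. The 69 assays with the highest mean levels, miR-150 and miR-26a among them, had median differences of -0.18, 0.49 and 0.05 by round, and the next 68, with miR-26b among them, -0.11, -0.05 and -0.17. The only gauge of spread between wells comes from controls, with an SD within a sample of 0.42 to 0.94 cycles over 9 wells of cel-mir-67, 1.59 to 2.80 over 8 wells of the small RNA RNY3 and 2.97 to 6.05 over 8 wells of the small RNA snoRD47. A scaling to RNY3 and snoRD47, used below as an alternative, therefore rests on controls that varied by several cycles within a sample.

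miR-150 stood at 5.53, 4.76 and 3.32 after DC priming in rounds 1, 2 and 3, against 3.44, 3.08 and 3.87 after B cell priming. The DC-primed cultures of rounds 1 and 2 were the highest of the 6, and that of round 3 lay among the B cell-primed cultures, so the groups overlap. The level averaged 4.54 ± 1.12 with DC priming and 3.47 ± 0.39 with B cell priming (SD, n = 3 each). The difference of 1.07 ± 0.76 (SE, 95% confidence interval -0.66 to 2.80) corresponds to 2.10-fold, with an interval of 0.633-fold to 6.96-fold, and did not pass limma's test (unadjusted p = 0.194, Benjamini-Hochberg adjusted p = 0.844 over 274 assays). Without DC-primed culture 3 it was 1.68 ± 0.73 (adjusted p = 0.299), and without DC-primed culture 1 it was 0.57 ± 0.68 (adjusted p = 0.724). By round, DC-primed minus B cell-primed was 2.09, 1.68 and -0.55.

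miR-26a, the larger of the miR-26 signals in 5 of 6 samples, stood at 4.67, 3.19 and -0.11 in the DC-primed cultures, against 2.17, 1.74 and 1.80 in the B cell-primed cultures. The B cell-primed cultures lay close together, and the DC-primed cultures lay on both sides of them, with those of rounds 1 and 2 above and that of round 3 below. The level averaged 2.58 ± 2.45 with DC priming and 1.91 ± 0.23 with B cell priming (SD, n = 3 each). The difference was 0.68 ± 1.14 (SE, 95% confidence interval -1.92 to 3.27; limma adjusted p = 0.986), made of 2.50, 1.45 and -1.91 in the 3 rounds. It was 2.02 ± 0.76 without DC-primed culture 3 (adjusted p = 0.258) and turned to -0.37 ± 0.97 without DC-primed culture 1 (adjusted p = 0.915).

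miR-26b stood at 3.21, 2.07 and -1.85 in the DC-primed cultures, against 2.30, 1.64 and 0.43 in the B cell-primed cultures. The highest and the lowest of the 6 values were both DC-primed, and round 3 was the lowest round in each group. The level averaged 1.14 ± 2.66 with DC priming and 1.46 ± 0.95 with B cell priming (SD, n = 3 each), a difference of -0.32 ± 1.26 (SE, 95% confidence interval -3.19 to 2.56; limma adjusted p = 0.986). The rounds gave 0.91, 0.43 and -2.28. The difference was 1.18 ± 0.83 without DC-primed culture 3 (adjusted p = 0.667) and -1.35 ± 1.18 without DC-primed culture 1 (adjusted p = 0.590). These intervals are wide: a difference of several fold either way is within the spread for both miR-26 assays.

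**Figure D1:**
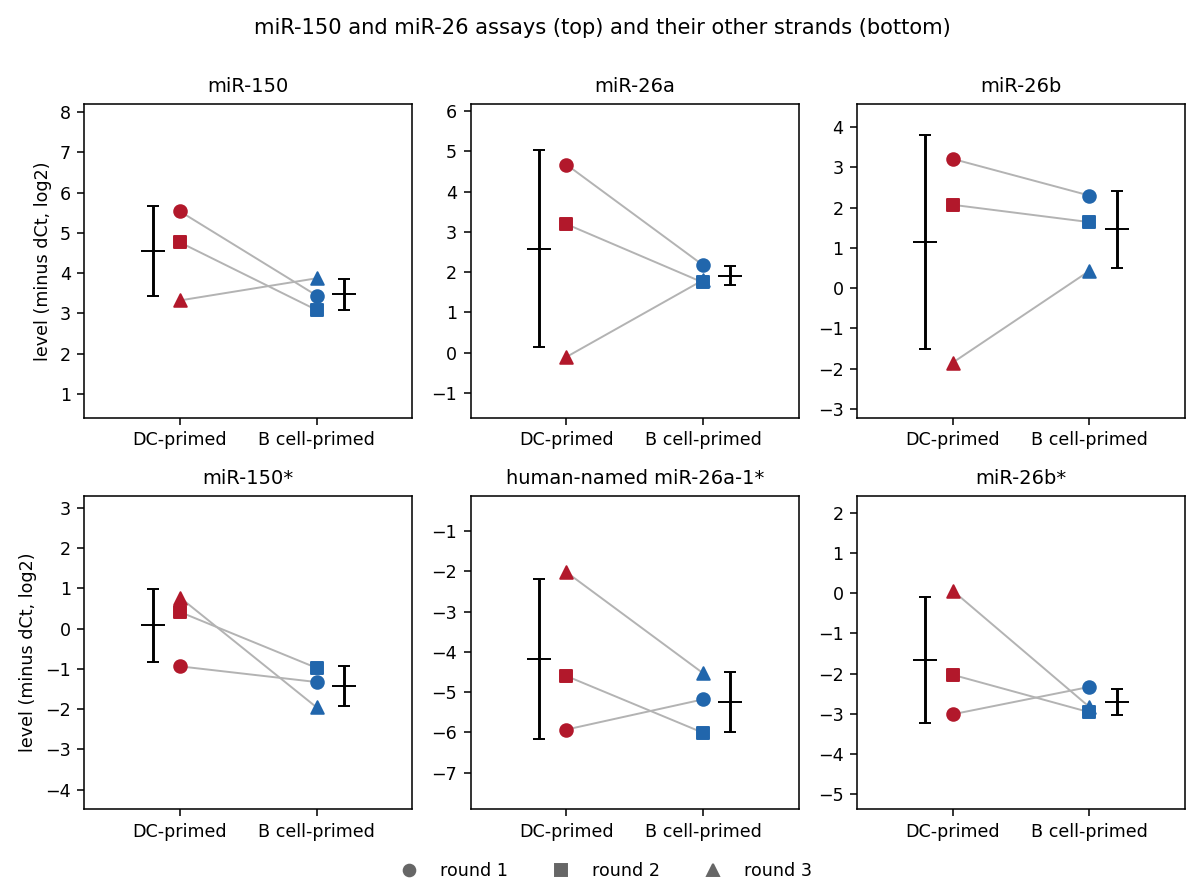
Level (minus dCt, log2) of each assay in every sample, DC-primed at left and B cell-primed at right, with a marker shape for each round, a grey line joining the samples of a round, and the mean ± SD (n = 3) in black. In the top row (miR-150, miR-26a, miR-26b) the round 3 lines run the other way from those of rounds 1 and 2; in the bottom row (the star assays) the round 3 DC-primed culture is the highest of the group.

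The raw cycles behind these levels show how strong the signals were. miR-150 crossed the threshold at a Ct of 20.65, 23.70 and 27.14 in the DC-primed cultures, against 22.91, 24.04 and 23.76 in the B cell-primed cultures. miR-26a did so at 21.51, 25.27 and 30.57 in the DC-primed cultures, against 24.18, 25.38 and 25.83 in the B cell-primed cultures. miR-26b did so at 22.97, 26.39 and 32.31 in the DC-primed cultures, against 24.05, 25.48 and 27.20 in the B cell-primed cultures. Every one of these values lay below the limit of 35, and DC-primed culture 3 gave the latest Ct of the 6 samples for each of the 3 assays.

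limma called 0 of the 274 assays (0%) at an adjusted p under 0.05, and 24 (8.76%) had an unadjusted p under 0.05, none of them a member. A difference of at least 1 in size was seen for miR-150 alone of the 3 and for 88 of the 274 assays (32.1%). The authors' deposited table gives ratios of DC-primed over B cell-primed of 2.10 for miR-150, 1.60 for miR-26a and 0.803 for miR-26b, with p-values of 0.322, 0.662 and 0.780 from its paired test over rounds. All 3 members shared 1 pattern, a positive difference in rounds 1 and 2 and a negative one in round 3, and so did 38 of the 274 assays (13.9%). The signs were the same for all 3 members relative to RNY3 and snoRD47 and relative to the sample median, although on the sample median miR-150 differed by only -0.11 in round 3 and miR-26b by 0.16 in round 2. Without normalization it held for miR-150 and miR-26a, while miR-26b differed by 1.08, -0.91 and -5.11 in the 3 rounds.

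The group differences also depend on the scaling. Between the groups the median of all 274 assays differed by 0.07 on the authors' scale, by -1.26 without normalization and by 1.30 relative to RNY3 and snoRD47. Without normalization the difference was -0.26 for miR-150 and -0.65 for miR-26a, so both turned sign, and -1.65 for miR-26b. Relative to RNY3 and snoRD47 they were 2.30, 1.90 and 0.91 for miR-150, miR-26a and miR-26b, and here miR-26b turned sign. Each of these scalings subtracts 1 number per sample, so it moves every assay alike and leaves the distance to the median difference as it was, by construction: 1.00 for miR-150, 0.61 for miR-26a and -0.39 for miR-26b. Quantile normalization, which can change that distance, gave 1.03, 0.62 and -0.41.

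**Figure D2:**
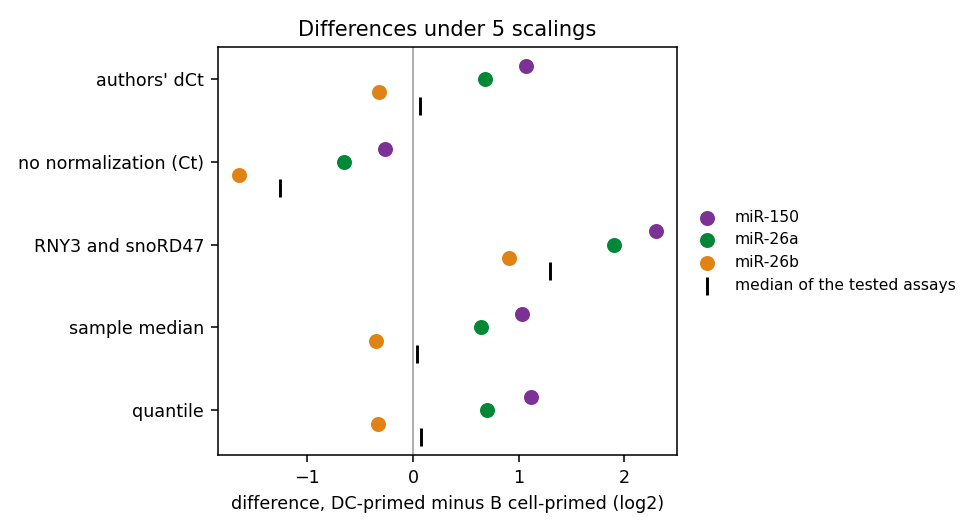
DC-primed minus B cell-primed difference (log2, x axis) for the 3 assays under 5 ways of scaling the samples (rows), with the median difference of the 274 tested assays as a black bar. The whole set shifts with the scaling, from a median of -1.26 without normalization to 1.30 relative to RNY3 and snoRD47; in every row but that of quantile normalization the spacing of the points is fixed, since 1 number per sample is subtracted.

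Position within a sample needs no scaling either. Ordered by level among the 274 tested assays, where 1 is the highest, miR-150 held places 16, 19 and 35 in the DC-primed cultures and 40, 46 and 27 in the B cell-primed cultures. miR-26a held places 27, 38 and 115 in the DC-primed cultures and 63, 73 and 63 in the B cell-primed cultures. miR-26b held places 51, 57 and 190 in the DC-primed cultures and 61, 77 and 105 in the B cell-primed cultures. The places depend on each primer's efficiency, so they can be set against each other between samples but not between assays. In DC-primed culture 3 both miR-26 assays stood lowest in the order, and miR-150 held place 35 there.

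Gaps between a pair of assays of the same sample carry no normalization and show how the members moved against each other. miR-150 exceeded miR-26a by 0.86, 1.57 and 3.43 cycles in the DC-primed cultures and by 1.27, 1.34 and 2.07 in the B cell-primed cultures, so the gap was widest in round 3 of each group. The difference of the mean gaps was 0.39 (two-sided exact permutation p = 0.8, adjusted p = 0.9 over 4 such gaps; 3 samples against 3 allow no p below 0.1). miR-150 exceeded miR-26b by 2.32, 2.69 and 5.17 cycles in the DC-primed cultures and by 1.14, 1.44 and 3.44 in the B cell-primed cultures. That gap, chosen after its values were seen and not tested, was wider in the DC-primed culture of every round, by 1.18, 1.25 and 1.73, although the groups overlap because round 3 was wide in both.

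Within the miR-26 pair, miR-26a exceeded miR-26b by 1.46, 1.12 and 1.74 cycles in the DC-primed cultures, against -0.13, 0.10 and 1.37 in the B cell-primed cultures. The gap was wider in the DC-primed culture of each round, by 1.59, 1.02 and 0.37. The mean gap was 1.44 ± 0.31 with DC priming and 0.45 ± 0.81 with B cell priming (SD, n = 3 each), with overlap between the groups. This gap too was chosen after its values were seen and is given with no test. It shares miR-26b with the gap of miR-150 minus miR-26b, so the 2 are not separate observations. Each gap rests on 1 value per assay, and the spread between control wells given above, at least 0.42 cycles, is of the size of these SDs.

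miR-155, which T cell activation is known to induce and which CD8+ T cells need for effector responses, was set against them. miR-155 stood at 8.05, 8.42 and 2.58 in the DC-primed cultures, against 5.56, 6.54 and 5.83 in the B cell-primed cultures. It therefore shared the sign pattern of the 3 members, with differences of 2.49, 1.88 and -3.25 by round. The gap of miR-150 minus miR-155 was -2.52, -3.66 and 0.74 cycles in the DC-primed cultures and -2.12, -3.46 and -1.96 in the B cell-primed cultures. DC-primed culture 3 alone had the later Ct for miR-155. The difference of the mean gaps was 0.70 (exact permutation p = 0.9, adjusted 0.9), and without DC-primed culture 3 it was -0.58. For miR-26a minus miR-155 the gaps were -3.38, -5.23 and -2.69 cycles in the DC-primed cultures and -3.39, -4.80 and -4.03 in the B cell-primed cultures, a difference of 0.31 (exact permutation p = 0.7, adjusted 0.9).

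**Figure D3:**
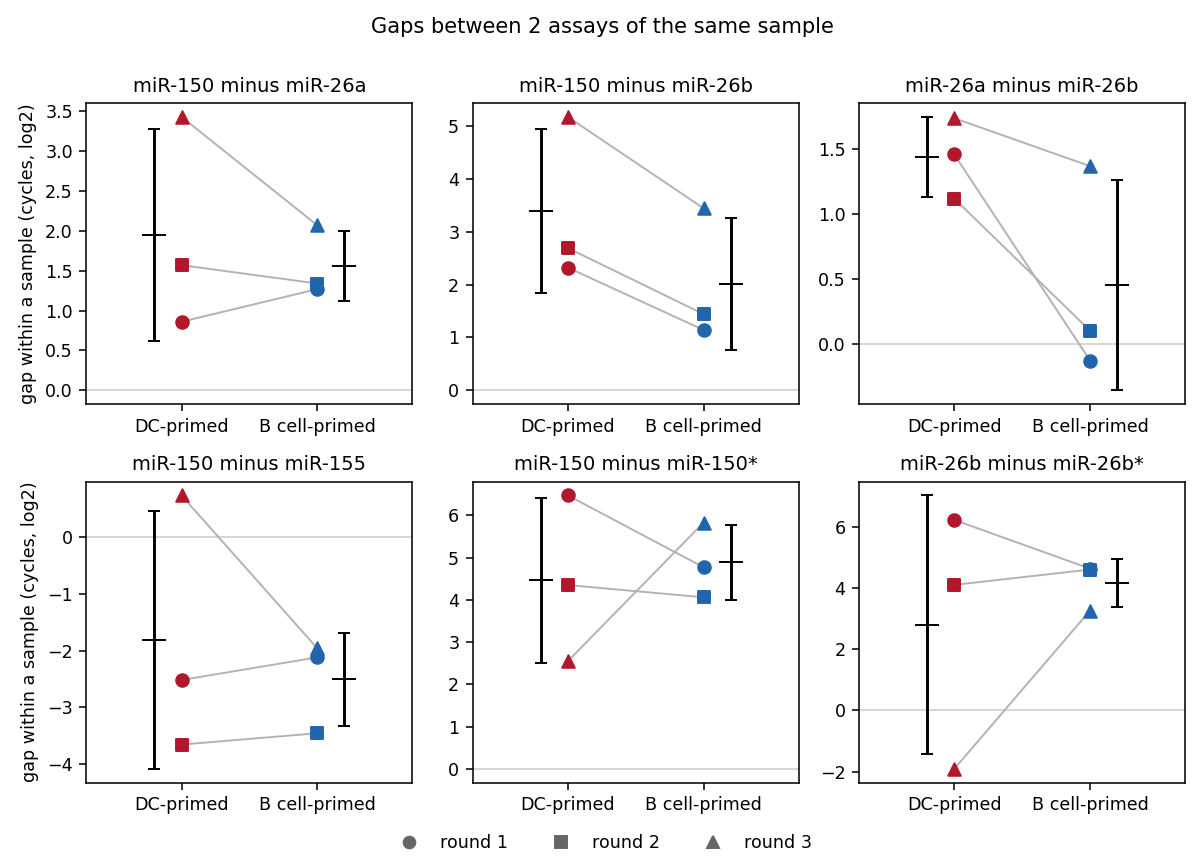
Gap between a pair of assays within each sample (cycles, log2; positive where the first assay has more signal), DC-primed at left and B cell-primed at right, rounds by marker shape and joined by grey lines, mean ± SD (n = 3) in black. miR-150 minus miR-26b and miR-26a minus miR-26b were wider in the DC-primed culture of every round. These 2 gaps share miR-26b and were chosen after their values were seen. The planned gap of miR-150 minus miR-26a differed by -0.41, 0.23 and 1.36 by round. For the gaps to miR-155 and to the star assays the round 3 line runs apart from the others. There the DC-primed values were 0.74 for miR-150 minus miR-155, 2.55 for miR-150 minus miR-150* and -1.91 for miR-26b minus miR-26b*.

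The other strands of the same hairpins, normally the discarded ones, were measured in the same samples. miR-150* stood at -0.94, 0.41 and 0.77 in the DC-primed cultures, against -1.33, -0.98 and -1.96 in the B cell-primed cultures. Every DC-primed value was above every B cell-primed one, which held in the same direction for 15 of the 274 assays (5.47%) and in either direction for 37 (13.5%). The difference was 1.50 ± 0.72 (SE, 95% confidence interval -0.14 to 3.14; limma adjusted p = 0.607), with 0.39, 1.39 and 2.73 by round. It had 1 sign in all 3 rounds, as did 70 of the 274 assays (25.5%). Without normalization it was 0.17, with -0.10 in round 3.

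miR-26b* stood at -3.01, -2.03 and 0.06 in the DC-primed cultures, against -2.33, -2.96 and -2.83 in the B cell-primed cultures, a difference of 1.04 ± 0.87 (SE; limma adjusted p = 0.961). The human-named assay for miR-26a-1* stood at -5.93, -4.60 and -2.02 in the DC-primed cultures, against -5.18, -6.01 and -4.53 in the B cell-primed cultures, a difference of 1.05 ± 1.03 (SE; adjusted p = 0.962). Both rest on DC-primed culture 3: without it the difference was 0.18 for miR-26b* and -0.03 for miR-26a-1*. Without normalization both were negative, at -0.29 and -0.28. The Ct of miR-26a-1* was late in every sample, from 31.53 to 33.13. On the authors' scale both were lower in the DC-primed culture of round 1 and higher in those of rounds 2 and 3, the reverse of the main strands in rounds 1 and 3, but relative to RNY3 and snoRD47 they were higher in all 3 rounds. The human-named assay for miR-26a-2* was not tested: its Ct was past 35 in 3 samples, and DC-primed culture 3 has a dCt filled in by the authors with no Ct behind it. Its levels were -7.58, -10.09 and -5.70 in the DC-primed cultures, against -7.16, -10.06 and -12.40 in the B cell-primed cultures.

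The gap between the strands of 1 hairpin needs no scaling. miR-150 exceeded miR-150* by 6.47, 4.35 and 2.55 cycles in the DC-primed cultures and by 4.77, 4.06 and 5.83 in the B cell-primed cultures, a difference of -0.43 (exact permutation p = 0.9, adjusted 0.9). miR-26b exceeded miR-26b* by 6.22, 4.10 and -1.91 cycles in the DC-primed cultures and by 4.63, 4.60 and 3.26 in the B cell-primed cultures. The gap of miR-26b to its star assay was not planned and is given with no test. In DC-primed culture 3 the star assay of miR-26b had the earlier Ct of the pair, at 30.40 against 32.31. The Ct of miR-26b* itself was 29.19, 30.49 and 30.40 in the DC-primed cultures, against 28.68, 30.08 and 30.46 in the B cell-primed cultures. Because primers differ in efficiency, the sign of a gap does not show which strand was more abundant. The difference in the strand gap, DC-primed minus B cell-primed, was taken for the 30 mouse-named hairpins with both strands tested. Its median was 0.72, -0.98 and -1.08 in rounds 1, 2 and 3. It was positive for 23 in round 1 and negative for 21 in round 3. In round 3 that of miR-26b, at -5.17, was the lowest of the 30, and that of miR-150, at -3.28, was the 7th lowest.

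The members were set beside a list of 33 miRNAs taken to be high in resting T cells and lowered by activation, themselves included. Whether this holds for each of them, miR-146a for one, was not tested, as there are no resting cells here. Of the 30 tested, 0 were called, 21 had a positive and 9 a negative difference, and the median difference was 0.52, where 146 of all 274 assays (53.3%) were higher and the median was 0.07. By round, 26, 22 and 8 of the 30 were higher in the DC-primed culture of rounds 1, 2 and 3, with medians of 1.40, 0.59 and -0.84; over all assays the counts were 114, 170 and 132 of 274, with medians of -0.27, 0.45 and -0.03. The pattern of the members, positive in rounds 1 and 2 and negative in round 3, held for 9 of the other 27 (33.3%) and for 13.9% of all assays. Without DC-primed culture 3, 27 of the 30 were higher, with a median of 1.25, as were 142 of all 274 assays. With DC-primed culture 1 left out instead, 16 of the 30 were higher, with a median of 0.06, as were 151 of 274. Without normalization 5 of the 30 were higher, as were 24 of 274, and relative to RNY3 and snoRD47 30 of 30 were, as were 238 of 274.

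Among the 30 tested members of this list the differences ranged from miR-100 at 2.61 to miR-29c at -1.07. By round miR-100 differed by 5.12, 2.97 and -0.26. miR-101a differed by 1.96, made of 5.73, -0.22 and 0.39 in the 3 rounds. let-7b, of the let-7 family that restrains proliferation, differed by 1.56, and miR-139-5p by 1.45. miR-181a, which tunes the sensitivity of the T cell receptor, differed by 1.31, with 4.68, 1.06 and -1.79 by round. At the other end stood miR-16 at -0.94, with 1.88, -0.40 and -4.29 by round. Groups did not overlap for 3 of the 30, miR-181b, let-7b and miR-139-5p, all higher in the DC-primed cultures of every round, against 13.5% of all assays. Of 20 miRNAs known to be raised by activation 17 were tested and 0 were called. Of the 17, 7 (41.2%) were higher and 10 lower, where 53.3% of all assays were higher. The median difference was -1.37, from miR-21 at 3.19 to miR-18a at -3.62. By round the medians of the 17 were 0.59, -1.73 and -1.12. Groups did not overlap for 6 of the 17, against 13.5% of all assays. Of these, miR-21 and miR-132 were higher in the DC-primed cultures, and miR-17, miR-20a, miR-106a and miR-182 were lower. Without normalization 2 of the 17 were higher, with a median of -2.70, as were 24 of all 274 assays. Relative to RNY3 and snoRD47 8 were, with a median of -0.15, as were 238 of 274. Without DC-primed culture 3, 5 of the 17 were higher, with a median of -1.08, as were 142 of all 274 assays. There limma called 1 of the 17, miR-222, and 2 of all 274. Without DC-primed culture 1, 6 of the 17 were higher, with a median of -1.56, as were 151 of 274.

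**Figure D4:**
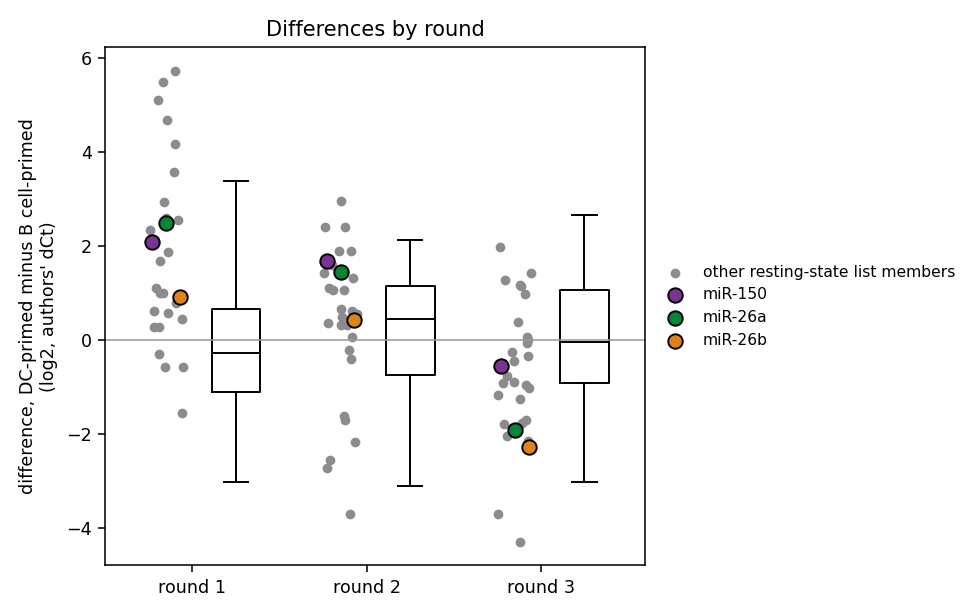
Difference between the DC-primed and the B cell-primed culture of each round (log2, authors' dCt). Points are the tested miRNAs of the list taken to be high in resting T cells, the 3 members in colour. The box beside them spans the quartiles of all 274 tested assays with whiskers at the 5th and 95th percentile. The list lies above the box's median in round 1 (1.40 against -0.27) and below it in round 3 (-0.84 against -0.03).

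The assays whose profile over the 6 samples was nearest to each member were found by the root mean square gap between profiles, each centred on its own mean, among 271 other tested assays. For miR-150 the nearest were miR-200b at 0.33, miR-185 at 0.40, the human-named miR-675b at 0.48, let-7i at 0.54 and miR-152 at 0.56, where the median gap was 1.34. For miR-26a the nearest was miR-30d at 0.25, followed by miR-337-5p at 0.55, miR-365 at 0.63, miR-501-3p at 0.70 and the human-named miR-675b at 0.71, with a median of 1.81. miR-30d stood at 4.77, 3.88 and 0.63 in the DC-primed cultures, against 2.43, 2.46 and 2.39 in the B cell-primed cultures, highest in DC-primed culture 1 and lowest in DC-primed culture 3, as miR-26a was. For miR-26b the nearest were miR-337-5p at 0.53, miR-30e* at 0.59, miR-146a at 0.68, miR-16 at 0.69 and let-7f at 0.71, with a median of 1.95. miR-26a and miR-26b lay 0.70 apart, with 4 assays closer to either, miR-150 lay 0.83 from miR-26a, and miR-150 and miR-26b lay 1.34 apart, the median distance for miR-150.

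Markers of the cell types that the cultures could hold were set beside these results. Summed as 2 to the power of the level, 4 T lymphocyte miRNAs (miR-155, miR-146a, miR-181a and miR-150) gave 323, 381 and 16.5 in the DC-primed cultures, against 62.4, 105 and 72.9 in the B cell-primed cultures. miR-155 makes up most of the larger sums. With miR-146a and miR-181a it had the sign pattern of the members, among whom miR-150 itself is counted. Since the priming cells may remain in the cultures, these sums cannot be read as T cell content. The 7 assays present of 8 myeloid and dendritic cell markers summed to 170, 26 and 7.97 in the DC-primed cultures, against 2.93, 4.64 and 4.17 in the B cell-primed cultures. In round 3 the largest part of either sum was miR-34a, at 2.32 after DC priming and 1.26 after B cell priming. Of the 7 assays miR-223, the defining myeloid miRNA, was not tested, because its Ct was not below 35 in all 6 samples. miR-223 stood at 5.36, 1.23 and -6.53 in the DC-primed cultures, against -5.79, -5.32 and -5.04 in the B cell-primed cultures. It was high in the same DC-primed cultures as the members and lowest of all in DC-primed culture 3. With 30.456 cycles subtracted in that culture, the level of -6.53 puts the Ct of miR-223 there past the limit of 35. That lowest value is therefore uncertain. Of the 5 myeloid markers tested, 5, 3 and 4 were higher in the DC-primed culture of rounds 1, 2 and 3 (114, 170 and 132 of all 274 assays). Their median differences were 5.07, 1.48 and 1.02. Of the 7 assays, miR-125a-5p (-0.20) and the untested miR-223 (-1.49) and miR-146b (-4.09) were lower in the DC-primed culture of round 3. A late Ct in any sample keeps an assay out of the test. The counts and medians of the 5 therefore leave out the largest falls of round 3. The 3 assays present of 4 markers of resting and B lymphocytes, miR-150 itself, miR-148a and miR-185, summed to 49.5, 29.0 and 14.3 in the DC-primed cultures, against 12.6, 10.9 and 16.3 in the B cell-primed cultures. None of these marks B cells alone. The pan-leukocyte pair miR-142-3p and miR-142-5p summed to 146, 8.94 and 256 in the DC-primed cultures and to 5.66, 76.1 and 16.9 in those primed by B cells, and the miR-142-3p value of DC-primed culture 3 was filled in by the authors. The 3 erythroid miRNAs gave 0.96, 2.55 and 5.28 in the DC-primed cultures, against 3.26, 2.33 and 4.25 with B cell priming. The part of these cell types in the members' differences was not tested, and in such bulk samples fewer cells of a type and less miRNA per cell cannot be told apart.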

How the data were processed

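mirVana total RNA was treated with DNase I, given poly(A) tails and reverse transcribed with a universal tag, and SYBR Green PCR paired a primer specific to each miRNA with a universal one, per the labels' protocols. The deposited tables are, per the file headers, raw Ct and the authors' dCt, a log2 value that subtracts from Ct the geometric mean of all of a sample's Ct values; over the deposited Ct that mean is 26.52 in DC-primed round 1, where the number subtracted is 26.182. Names and headers of these tables contradict each other, and the values match the headers. The authors filled in 10 dCt values where the Ct is blank. The authors' deposited ratio is 2 to the power of minus ddCt, and the authors' deposited p-value comes from its paired comparison of dCt. Ct minus dCt was 1 number per sample to within 0.02 cycles in all but 0 to 2 assays a sample.

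The level is minus dCt. DC-primed minus B cell-primed levels were tested two-sided and with no block by lmFit and eBayes of limma 3.58.1 (R 4.3.3) over the 274 assays with a Ct below 35 in all 6 samples, and an assay was called where its Benjamini-Hochberg adjusted p was under 0.05; the code was tested on simulated data. Gaps between assays were compared from raw Ct by exact permutation. Members and lists, chosen with earlier results of these data known, are the mouse-named assays of miR-150, miR-26a and miR-26b, their other strands and the 5 nearest profiles of each. The fixed lists are of miRNAs taken to be lowered or raised by T cell activation and of cell type markers. Named from the lists were the largest and smallest difference and members picked for their role or value.

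Titles number the rounds. Differences by round treat the samples of a round as pairs, as the authors' paired test does. Once group means were subtracted, the samples of a round correlated at 0.16, 0.14 and 0.46 over the 274 assays. DC-primed round 1 with B cell-primed round 2 gave 0.33, above the values of rounds 1 and 2, so these correlations do not settle whether the samples are pairs. Alternatives were 4 scalings, 3 detection limits, recomputed dCt, round as a block, an eBayes trend, and leaving out each sample and each round. List counts under other settings were added after seeing the data. Plots used Python 3.11.15 with matplotlib 3.10.9. How Ct was called is not stated in these sources.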

Additional observations from a re-analysis of the deposited data

How the results depend on the processing

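No alternative brought a member past the threshold. miR-150 kept its direction in 18 of 19 alternatives, from -0.26 without normalization to 2.30 relative to RNY3 and snoRD47, and ranged from 0.56 to 1.88 when a sample or round was left out. miR-26a turned in 3 of 19, at -0.65 without normalization, -0.37 without DC-primed culture 1 and -0.23 without round 1, and ranged up to 2.02. miR-26b turned in 4 of 18, at 0.91 relative to RNY3 and snoRD47, 0.67 without round 3, 1.18 when DC-primed culture 3 was left out and 0.10 when B cell-primed culture 1 was, and went down to -1.35 without DC-primed culture 1; it was not among the assays tested with a Ct limit of 32. Without DC-primed culture 3 the within-sample gaps turned to -0.34 for miR-150 minus miR-26a, -0.58 for miR-150 minus miR-155, 0.52 for miR-150 minus miR-150* and -0.23 for miR-26a minus miR-155; miR-150 minus miR-150* was 0.04 without B cell-primed culture 3, and miR-26a minus miR-155 was -0.06 without B cell-primed culture 2. Leaving out 1 sample, these gaps ranged from -0.34 to 0.94, -0.58 to 1.62, -1.44 to 0.52 and -0.23 to 1.04 in the same order. Among the star assays, miR-26a-1* was -0.28 and miR-26b* -0.29 without normalization, and miR-26a-1* was -0.03 without DC-primed culture 3. Leaving out 1 sample or round, miR-150* ranged from 0.89 to 2.06, miR-26a-1* from -0.03 to 1.96 and miR-26b* from 0.12 to 1.91. Of the 30 resting-state miRNAs, 5 were higher without normalization, where 24 of all 274 assays were. The cause of these turns was not tested. Of 19 alternatives limma called 0 assays in 18, with 2 called without DC-primed culture 3, miR-222 and miR-805, neither of them a member. With the round as a replicate block the differences were the same, with adjusted p = 0.722 for miR-150, 0.921 for miR-26a and 0.988 for miR-26b, 0 calls over all assays and 33 assays at an unadjusted p under 0.05; it changed no call. With 3 samples a group, 1 value per assay and no resting cells, differences of the size seen here lie within the spread.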
